A study of Oryza sativa with 18 samples.

Results

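The exit from meiosis was compared between the fertile and the sterile state of 1 rice line as a difference of changes. For each coding gene, the change from P3 (meiosis) to P4 (microspore formation) in WXS (F) was set against the same change in WXS (S). Of 47919 coding genes in the count table, 26407 were tested, those that reached 10 counts in 3 or more of the 12 libraries from P3 and P4. The change differed between WXS (F) and WXS (S) for 5282 genes, which is 20.0% of those tested, at an adjusted p below 0.05 (edgeR's quasi-likelihood test with Benjamini-Hochberg adjustment over all genes tested).

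Wuxiang S (WXS) is a photo-thermosensitive genic male sterile line, and the same line gave both states. WXS (F) plants were moved, when the young panicle was about 1 cm long, into an incubator with 12 h of light and 12 h of darkness at about 21 °C for 3 to 4 weeks, and they were fertile. WXS (S) plants stayed in the field, where the daily mean temperature was above 24 °C and the day longer than 12 h, and they were male sterile. The study writes that they formed no pollen, and elsewhere it describes their pollen as abortive. Fertility, day length, temperature and growth in an incubator or in the field cannot be told apart in this design. The groups used here were FP4, FP3, SP4 and SP3, with 3 libraries of whole young panicles each, and the 6 libraries of FP2 and SP2 (P2, pollen mother cell formation) were used for comparison. In whole panicles, fewer cells of a type and less RNA per cell cannot be told apart.

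During meiosis, the pollen mother cells of the anther replicate their chromosomes, recombine them and divide into tetrads, enclosed in callose. At the exit from meiosis the callose is dissolved, the microspores are released, and the tapetum, the innermost layer of the anther wall, supplies the sugars, lipids and wall precursors from which the pollen wall is built. In photo-thermosensitive male sterile rice, long days or high temperature during panicle development prevent the formation of fertile pollen. The line is used as a female parent for hybrid seed in that state and propagates itself in the other.

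The 12 libraries held between 30577833 and 51193158 counts of coding genes each, and their TMM factors lay between 0.9135 and 1.079. Replicates of a group differed well beyond counting error, with a chi-square between 57.9 and 209 per gene for the pairs within groups. Abundant genes can dominate this value, and it cannot show that libraries are independent samples. The study calls the replicates biological, and each was counted as a sample. SP3-2, the library with the smallest total, stood apart from SP3-1 and SP3-3. It had counts for 34782 genes, against 29014 and 28044 genes in SP3-1 and SP3-3, and it held 412 genes with at least 10 counts that were at 0 in both of those libraries. The corresponding numbers for the other 11 libraries lay between 48 and 138 genes. No check of panicle or anther marker genes is reported, since the sources used here pair none of the marker genes with a locus ID.

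The first principal component, with 49.8% of the variance, placed the groups in the order SP3, SP4, FP3, FP4. The FP4 libraries lay between 151.3 and 155 on it and the FP3 libraries between 38.85 and 40.72, while the SP4 libraries lay between -31.81 and -29.23 and the SP3 libraries between -173 and -145.2. Both states thus moved the same way between P3 and P4 on this component. The third component (9.36%) set FP4 together with SP3 and apart from FP3 and SP4, which is the form a difference of changes takes. The fourth component (4.89%) separated SP3-2, at -104.7, from SP3-1 and SP3-3, at 38.17 and 53.93.

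**Figure D1:**
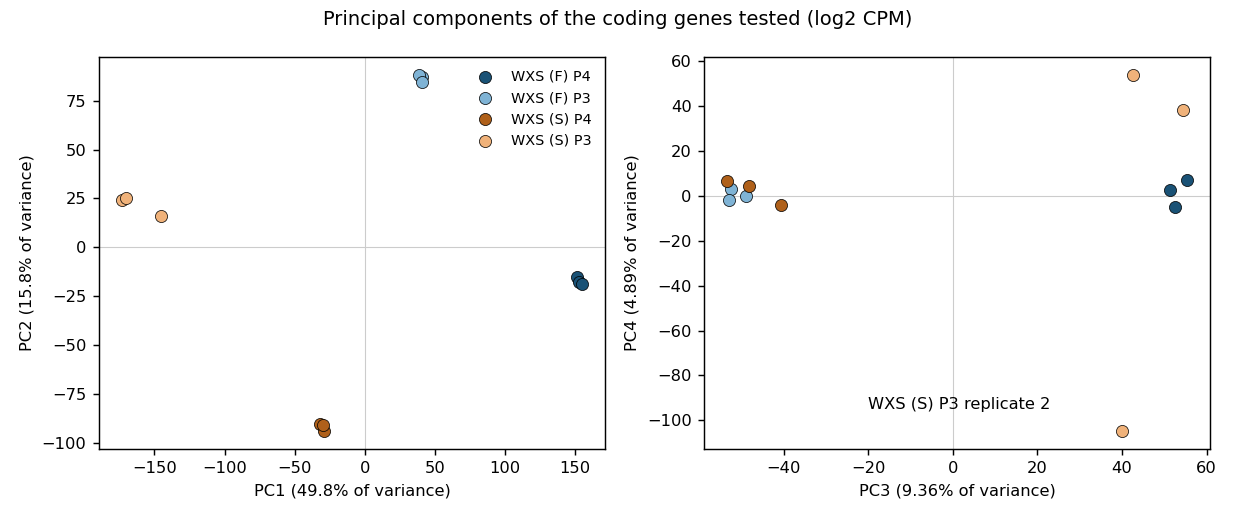
Principal components 1 to 4 of log2 CPM of the coding genes tested, 1 point per library (n = 3 per group). Left, component 1 (49.8% of the variance) against component 2 (15.8%). Right, component 3 (9.36%) against component 4 (4.89%), where WXS (S) P3 replicate 2 lies at -104.7.

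The change was higher in WXS (F) than in WXS (S) for 2404 genes (9.10% of those tested) and lower for 2878 genes (10.9%). A difference of at least 1 on the log2 scale was reached by 907 of the genes with a higher change and by 1687 of those with a lower change. A difference of at least 3 was reached by 268 and 369 genes. Without SP3-2 the numbers were 4222 genes with a higher and 4332 with a lower change, and 2344 (97.5%) and 2823 (98.1%) of the genes called with all 12 libraries were among them. Counts scaled to library totals alone, without TMM, moved the median difference of all genes to -0.15, against 0.01 with TMM. The split was then 1266 higher and 3344 lower, so that 27.5% of the called genes had a higher change, against 45.5% with TMM. The number of genes with a higher change also depended on single FP4 libraries, being 1369 without FP4-2 and 1581 without FP4-3.

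The same fit gave the changes that the difference is made of. In WXS (F), 5255 genes rose and 4669 fell from P3 to P4 (37.6% of the genes tested). In WXS (S), 6026 genes rose and 5899 fell (45.2%). WXS (F) and WXS (S) differed in 48.7% of the genes at P3 and in 42.7% at P4. The balance of directions depended on the scaling. Without TMM, 4188 genes rose and 5780 fell in WXS (F), and 6078 rose and 5136 fell in WXS (S). At P4, WXS (F) was higher for 6020 and lower for 5252 genes with TMM, and higher for 5099 and lower for 6310 without it. At P3 the numbers were 6423 and 6428 with TMM and 6525 and 5518 without it. These comparisons share libraries with the difference and with each other, so they describe it and give no separate evidence for it.

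**Figure D2:**
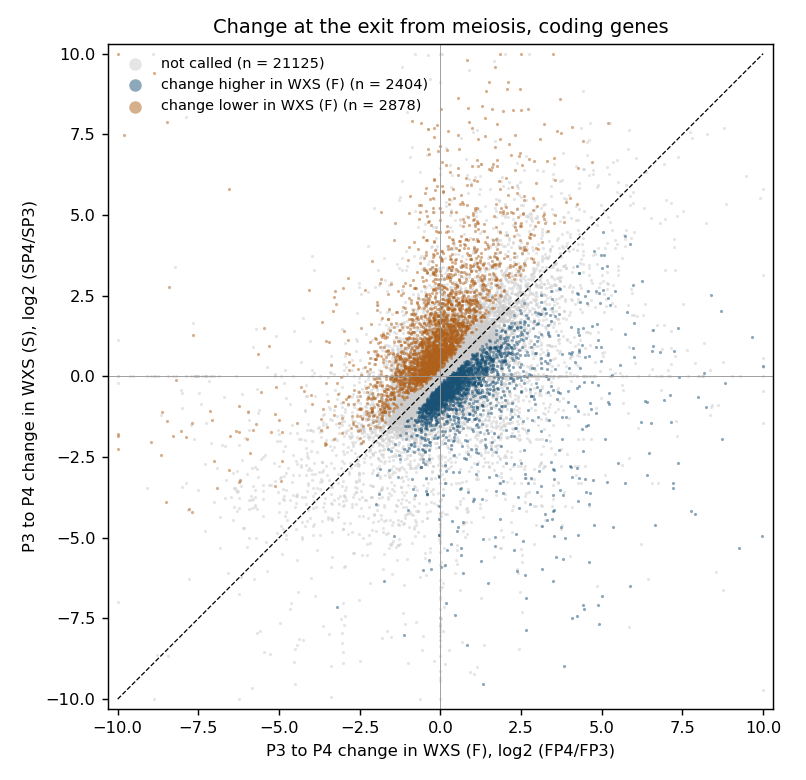
Change from P3 to P4 of each coding gene in WXS (F) (horizontal axis) and in WXS (S) (vertical axis), both as log2 ratios, with values beyond 10 units from 0 drawn at the edge. Genes on the dashed line changed equally, and the 2404 genes whose change was higher in WXS (F) lie below it and the 2878 whose change was lower lie above it.

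Among the 2404 genes with a higher change, the median log2 change was 0.43 in WXS (F), against -0.46 in WXS (S). With TMM, 869 genes (36.1%) had no called change in WXS (F) and a fall in WXS (S), and 664 genes (27.6%) rose in WXS (F) with no called change in WXS (S). Without TMM the order of these patterns turned, with 380 and 394 genes. A further 356 genes rose in both states, with a median log2 rise of 1.74 in WXS (F), against 0.77 in WXS (S). The genes that moved in opposite directions, up in WXS (F) and down in WXS (S), numbered 210 (8.74%). The remaining genes were 246 that fell in both, with a median log2 change of -0.44 in WXS (F) and -1.0 in WXS (S), and 59 with no called change in either.

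Among the 2878 genes with a lower change, the median log2 change was -0.19 in WXS (F), against 0.95 in WXS (S). The largest pattern, with and without TMM, was a change called in WXS (S) alone, with 1134 genes (39.4%) that rose there and had no called change in WXS (F). With TMM, rises in both states were next, with 632 genes and a median log2 rise of 0.97 in WXS (F) and 2.35 in WXS (S). A fall in WXS (F) with no called change in WXS (S) was found for 530 genes (18.4%). Without TMM this pattern, with 717 genes, outnumbered the rises in both states, with 570. Opposite movement, down in WXS (F) and up in WXS (S), was found for 309 genes (10.7%). In both directions, opposite movement was less frequent than a change called in a single state, a count that was not tested. A change called in 1 state and not in the other does not show that the other state did not change.

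Leaving out SP3-2 raised every one of these counts, and by more than 1.5 times for 4 patterns with a higher change. Falls in both states rose most, to 882 genes without SP3-2, against 246 with it. Opposite movement with a rise in WXS (F) rose to 476 genes, falls in WXS (S) alone to 1408, and genes with no called change in either to 91. Without TMM, each pattern with a higher change held fewer genes by more than 1.5 times, with 222 rising in both states, 121 moving in opposite directions, 120 falling in both and 29 with no called change in either. Among the genes with a lower change, leaving out SP3-2 raised 3 patterns by more than 1.5 times. These were rises in both states (977 genes), opposite movement (576) and no called change in either (82).

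**Figure D3:**
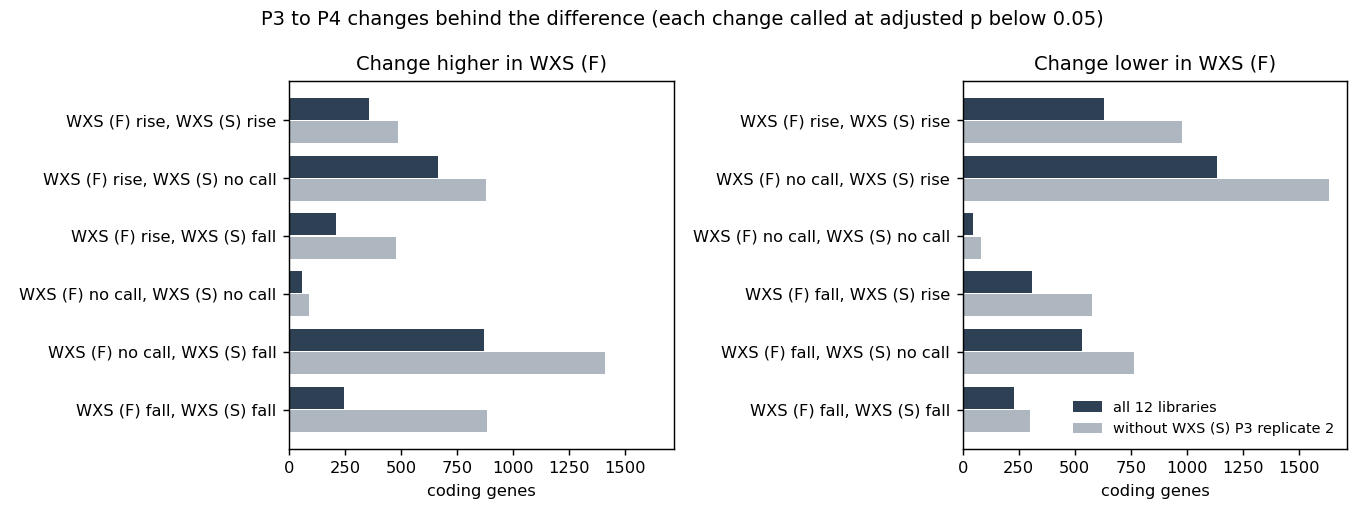
Number of coding genes in each combination of the P3 to P4 change in WXS (F) and in WXS (S), for genes whose change was higher in WXS (F) (left) and lower (right). Dark bars, all 12 libraries; light bars, without WXS (S) P3 replicate 2. The longest dark bars are the 869 and 1134 genes whose change was called in WXS (S) alone. Without TMM the first of these held 380 genes, fewer than the 394 that rose in WXS (F) alone.

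The differences between WXS (F) and WXS (S) at each stage describe the same genes from the other side. Of the 2404 genes with a higher change, 849 (35.3%) were lower in WXS (F) at P3 and had no called difference at P4, and 658 (27.4%) were higher in WXS (F) at P4 alone. The order of the states was reversed for 232 genes, lower in WXS (F) at P3 and higher at P4. Of the 2878 genes with a lower change, 846 (29.4%) were higher in WXS (F) at both stages. Their median log2 difference was 3.05 at P3 and 1.52 at P4, so that the distance between the states narrowed while WXS (F) stayed the higher. A further 786 genes (27.3%) were higher in WXS (F) at P3 alone, 546 were lower in WXS (F) at P4 alone, and 272 were higher at P3 and lower at P4. Without SP3-2, 6 classes grew by more than 1.5 times. With a higher change, 1338 genes were then lower in WXS (F) at P3 alone, 488 had the reversed order, 962 were lower at both stages (293 with SP3-2) and 70 had no called difference at either (34 with SP3-2). With a lower change, 1299 were higher at P3 alone and 540 had the reversed order. Without TMM, the genes with a higher change were 382 lower at P3 alone, 405 higher at P4 alone, 129 with the reversed order and 118 lower at both stages. Among genes with a lower change, those higher at P3 alone (986) then outnumbered those higher at both stages (828).

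The scale of the difference bears on how these genes are read. On the log2 scale, a gene at a very low level in SP3 can have a lower change in WXS (F) while gaining more transcripts there. Among the genes with a lower change, 197 (6.85%) had a mean below 1 CPM (counts per library total, TMM-scaled) in FP3, against 663 (23%) in SP3. Of the genes with a higher change, 319 (13.3%) were below 1 CPM in FP3 and 278 (11.6%) in SP3. A level this low in SP3 was thus more frequent with a lower than with a higher change. Of all genes tested, 5778 (21.9%) were below 1 CPM in FP3 and 6594 (25%) in SP3. The share in SP3 with a lower change did not exceed that of all genes tested, whose median level was lower. In CPM, the change was larger in WXS (F) for 490 of the 2878 genes (17.0%), against the sign of the log2 difference, and 332 of these were higher in WXS (F) at both stages. The sign was opposite in CPM for only 17 of the 2404 genes with a higher change (0.707%).

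Few of the called genes were present in a single group alone or missing from a single group alone. Counts of at least 10 in all 3 FP4 libraries and of at most 3 in each of the other 9 were found for 74 genes, of which 9 were called with a higher change. The reverse, counts of at most 3 in every FP4 library and of at least 10 in the other 9, was found for 25 genes, 18 of them called with a lower change. Genes missing in this way from SP3 numbered 79, and 60 of them were called with a lower change. Only 3 genes were missing from SP4 in this way, and none from FP3. Genes present in SP3 alone numbered 61, of which 7 were called with a higher change. Genes present in a single group had at most 3 counts in each of the other 9 libraries. From so few counts the change in the other state is poorly estimated. That few of these genes were called does therefore not show that their changes were alike.

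The P2 libraries entered no part of the difference and give the state of its genes at the stage before. At P2, 40.9% of the 23356 genes tested at both points differed between FP2 and SP2 (edgeR, adjusted p below 0.05). The share was 51.5% for the genes with a higher change and 55.5% for those with a lower change. Called genes were more abundant, with median levels of 4.84 and 3.97 log2 CPM against 3.35 for all genes. Within the upper part of the genes by level, above that median, the shares were 54.2% and 55.7%, against 45.3% for all genes. No test was made of these shares.

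The direction at P2 differed between these groups of genes. Of the genes with a lower change that were higher in WXS (F) at P3 and P4, 71.1% were already higher in FP2 than in SP2, and 7.43% were lower. Of the genes with a higher change that were lower in WXS (F) at both stages, 64.4% were lower in FP2 and 6.16% higher. Genes that were higher in WXS (F) at P4 alone were higher in FP2 in 30.4% and lower in 12.8% of cases. Where the order of the states was reversed between P3 and P4, the P2 calls went both ways, with 24.2% higher and 26.5% lower among genes with a higher change, and 20.1% higher and 30.7% lower among genes with a lower change. Of all genes, 21.5% were higher and 19.4% lower in FP2. The classes were formed by the same difference between the states at P3 and P4. The P2 share of all genes higher, or lower, in WXS (F) at both of these stages was not computed. The shares at P2 can therefore not be read as particular to genes whose change differed. The directions at P2 rest on TMM, since without it 6559 of the genes tested at P2 were higher and 3499 lower in FP2.

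**Figure D4:**
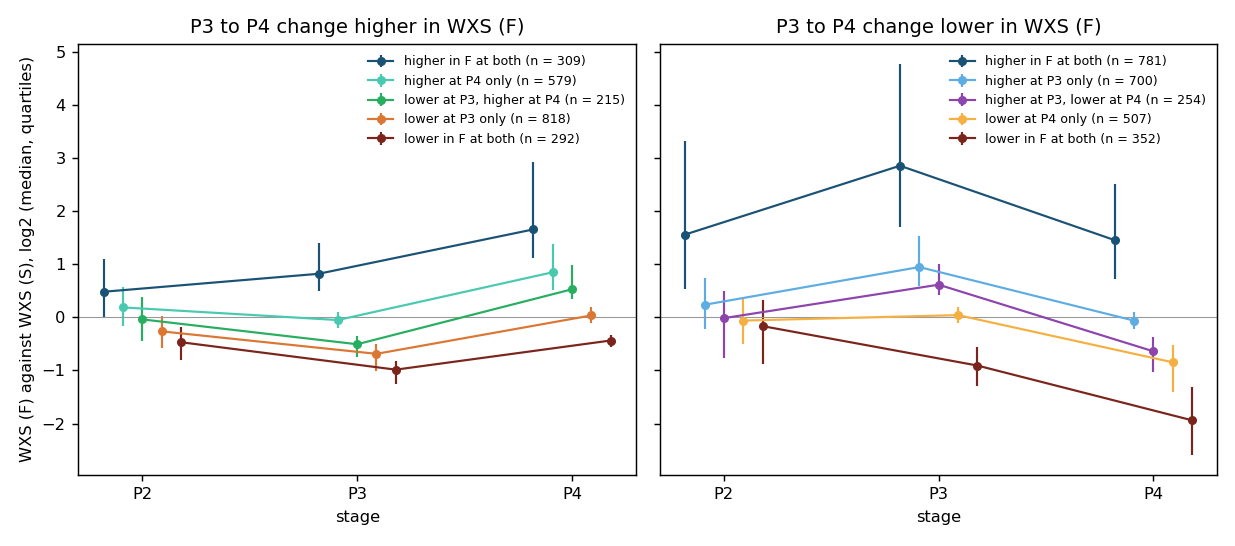
Log2 difference between WXS (F) and WXS (S) at P2, P3 and P4 for genes whose P3 to P4 change was higher (left) or lower (right) in WXS (F), grouped by the differences called at P3 and P4. Points, medians over genes; bars, quartiles. P2 libraries were not used to choose the genes. Only genes also tested at P2 are drawn. Among genes with a lower change, those higher in WXS (F) at both stages (upper line on the right) had the largest median difference at P2 and P3, and at P4 those lower in WXS (F) at both stages lay farther from 0.

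The called genes were spread over the chromosomes, and calls were least frequent at the lowest levels of expression, where counting error is largest. By chromosome, as given in the locus IDs, 8.45% to 10.2% of the genes tested had a higher change and 8.82% to 12.6% a lower change, with chromosome 12 at the lower end for a lower change and chromosome 3 at the upper end. Called genes were least frequent among the 6601 genes of lowest mean level, of which 280 (4.24%) had a higher and 277 a lower change. Among the 6602 genes of highest level, 1070 (16.2%) had a higher and 855 a lower change. Loci that were assembled from these reads, 1511 of those tested, were called less often, at 4.04% higher and 4.43% lower. Annotated MSU loci had shares of 9.42% and 11.3%.

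The genes with the smallest p were picked on these same libraries, so close replicates and large differences follow from the choice. The sources used here give no name for LOC_Os04g45960. It had 624, 622 and 619 CPM in FP4, against 50.9, 52.3 and 46.7 CPM in FP3. In WXS (S) it had 8.96, 9.4 and 9.74 CPM in SP4, against 13.1, 13.4 and 12.9 CPM in SP3. The gene rose in WXS (F) and fell in WXS (S), and the log2 difference of changes was 4.12 ± 0.08 (SE, with adjusted p = 1.71e-09, edgeR). At P2 it stood at 13.2 to 15.7 CPM in WXS (F) and at 12.4 to 14.6 CPM in WXS (S), so that the states came apart after P2. LOC_Os01g03660, also unnamed, rose to 147, 160 and 157 CPM in FP4, against 32.0, 29.3 and 29.5 CPM in FP3, while SP4 had 15.6, 15.6 and 18 CPM and SP3 20.5, 18.3 and 20.3 CPM. Its log2 difference was 2.62 ± 0.11 (adjusted p = 2.9e-07).

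In the other direction, LOC_Os04g01740 fell in WXS (F), with 29.7, 29.1 and 31.2 CPM in FP4 against 91.9, 88.8 and 91.9 CPM in FP3. It rose in WXS (S), with 24.2, 23.2 and 24.2 CPM in SP4 against 5.05, 5.3 and 6.35 CPM in SP3. At P2 the order was the reverse of that at P3, with 25.2, 25.5 and 23.2 CPM in FP2 and 166, 233 and 228 CPM in SP2. The log2 difference of the P3 to P4 changes was -3.70 ± 0.12 (adjusted p = 7.66e-08). LOC_Os08g42720 had a difference of -3.41 ± 0.11 (adjusted p = 7.66e-08), with no called change in WXS (F) and a log2 rise of 3.27 in WXS (S).

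The study lists 118 genes that could be looked up by locus ID, 106 of them parental genes of circular RNAs and 12 predicted targets with symbols. A described function could be given to all but 12 of the parental genes. Of these, 117 were tested and 37 were called, 14 with a higher and 23 with a lower change (31.6%, against 20.0% of all genes). The study chose these genes on the same libraries, so that their share is no independent evidence of anything about them. Calls were also most frequent among the 6602 genes of highest mean level, with 1070 higher and 855 lower changes. The share of the 117 genes, and those of the groups below, were not compared with genes of similar level. A share above 20.0% can therefore not be read as an excess. The median log2 difference of the 117 was -0.05. The annotations come from similar proteins of other plants, and the functions given below are background.

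Of 10 genes of cell division and chromosomes, 6 were called, 3 in each direction, against 20.0% of all genes tested. The calls of 4 of the 6 were lost when single libraries were left out. Cyclin-B1-3 (LOC_Os02g41720), a B-type cyclin of the kind that drives entry into division, rose in WXS (F), with no called change in WXS (S). It had 18.7, 17.0 and 16.3 CPM in FP4, against 5.17, 3.98 and 4.84 CPM in FP3. SP4 had 8.03, 6.08 and 7.72 CPM and SP3 8.20, 3.97 and 5.84 CPM, which overlap. The log2 difference was 1.62 ± 0.33 (adjusted p = 0.00586). At P2 the gene stood at 3.33 to 3.72 CPM in WXS (F) and 3.43 to 4.51 CPM in WXS (S).

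Other genes of this group had a lower change in WXS (F). DNA ligase 1 (LOC_Os01g49180), which seals breaks between newly made DNA stretches, had 50.2, 47.4 and 39.2 CPM in FP4 against 49.4, 47.9 and 45.8 CPM in FP3. It rose in WXS (S), with 59.8, 54.8 and 54.3 CPM in SP4 against 31.9, 42.2 and 31.6 CPM in SP3, and the log2 difference was -0.74 ± 0.17 (adjusted p = 0.0131). Kinesin NACK1 (LOC_Os01g33040), whose tobacco counterpart works in the formation of the cell plate, fell in WXS (F) to 14.5, 15.2 and 14 CPM in FP4, against 24.6, 23.5 and 24.6 CPM in FP3. SP4 had 52.6, 40 and 43.3 CPM and SP3 45.8, 52 and 55.3 CPM, with a log2 difference of -0.56 ± 0.15 (adjusted p = 0.0229). The chromatin assembly factor 1 subunit FSM (LOC_Os01g67100), which deposits histones on replicated DNA, fell in both states with log2 changes of -0.99 in WXS (F) and -0.53 in WXS (S) (difference -0.47 ± 0.13, adjusted p = 0.0277). In CPM, FSM fell more in WXS (S), with changes of -10.8 CPM there and -7.38 CPM in WXS (F).

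NACK1 and FSM were both higher in WXS (F) at P2, with 87.9 to 98.4 CPM in FP2 against 60 to 62.8 CPM in SP2 for NACK1 and 63.0 to 64.7 CPM against 38.6 to 42.6 CPM for FSM. At P3 and P4 both were lower in WXS (F). Gamma-tubulin complex component 2, which nucleates microtubules, and DNA topoisomerase 3-alpha, which in Arabidopsis resolves recombination intermediates, had higher changes of 0.41 ± 0.11 (adjusted p = 0.0208) and 0.37 ± 0.11 (adjusted p = 0.0326). Leaving out 1 library ended the call for FSM with 4 of the 12 libraries, for NACK1 with 2, for gamma-tubulin complex component 2 with 6 and for topoisomerase 3-alpha with 8, with adjusted p of up to 0.223. ATM, aurora kinase 1, TOUSLED and OsOSD1, a rice gene of the passage into the second meiotic division, were not called. OsOSD1 (LOC_Os02g37850) had 3.76, 2.32 and 3.03 CPM in FP4 against 2.72, 4.25 and 4.40 CPM in FP3, and 5.52, 5.86 and 5.85 CPM in SP4 against 12.6, 7.66 and 9.21 CPM in SP3 (log2 difference 0.45 ± 0.35, adjusted p = 0.401).

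Of 14 genes of the cell wall, the cell surface and glycosylation, 4 were called (28.6%, against 20.0% of all genes tested). A GDSL esterase/lipase (LOC_Os06g43044), from a family of enzymes that cleave lipid and acyl esters, had the largest difference of the called genes with a described function. It had 87.0, 57.6 and 93.6 CPM in FP4, against 8.73, 7.34 and 8.57 CPM in FP3. In WXS (S) it had 7.36, 7.08 and 8.06 CPM in SP4, against 7.73, 5.49 and 9.21 CPM in SP3. FP4 stood apart from all other groups, which overlapped, and the log2 difference was 3.27 ± 0.30 (adjusted p = 3.49e-05). FP2 and SP2 had 5.04 to 6.52 and 4.43 to 5.03 CPM.

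The chromosome 3 copy of ESKIMO 1 (LOC_Os03g18140), which in Arabidopsis acetylates xylan, had a similar pattern. FP4 had 130, 81.1 and 117 CPM, against 24.6, 20 and 35.4 CPM in FP3, while SP4 had 36.5, 39.1 and 24.2 CPM, against 28.8, 27.6 and 20.8 CPM in SP3. The log2 difference was 1.67 ± 0.36 (adjusted p = 0.00884). The copy on chromosome 5 had a difference of 0.05 ± 0.12 (adjusted p = 0.811). Cinnamoyl-CoA reductase 1 (LOC_Os08g34280), the first committed enzyme of lignin monomer synthesis, rose in both states and more in WXS (F). It had 92.6, 100 and 104 CPM in FP4 against 50.9, 44.6 and 49.0 CPM in FP3, and 25.9, 27.8 and 28.8 CPM in SP4 against 22, 22.8 and 22.5 CPM in SP3 (log2 difference 0.74 ± 0.10, adjusted p = 0.000664).

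Trichome birefringence-like 38 (LOC_Os01g46350), of the same protein family as ESKIMO 1, had a lower change in WXS (F), although it rose in both states. It had 69.3, 80.3 and 83.2 CPM in FP4 against 29.2, 30.9 and 29.9 CPM in FP3, and 40.6, 44.8 and 41.4 CPM in SP4 against 6.81, 6.71 and 4.25 CPM in SP3. The log2 difference was -1.47 ± 0.21 (adjusted p = 0.000914). In CPM the rise was larger in WXS (F), 47.6 CPM against 36.3 CPM, so this gene is among those whose sign depends on the scale. The other 10 genes of the group were not called.

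**Figure D5:**
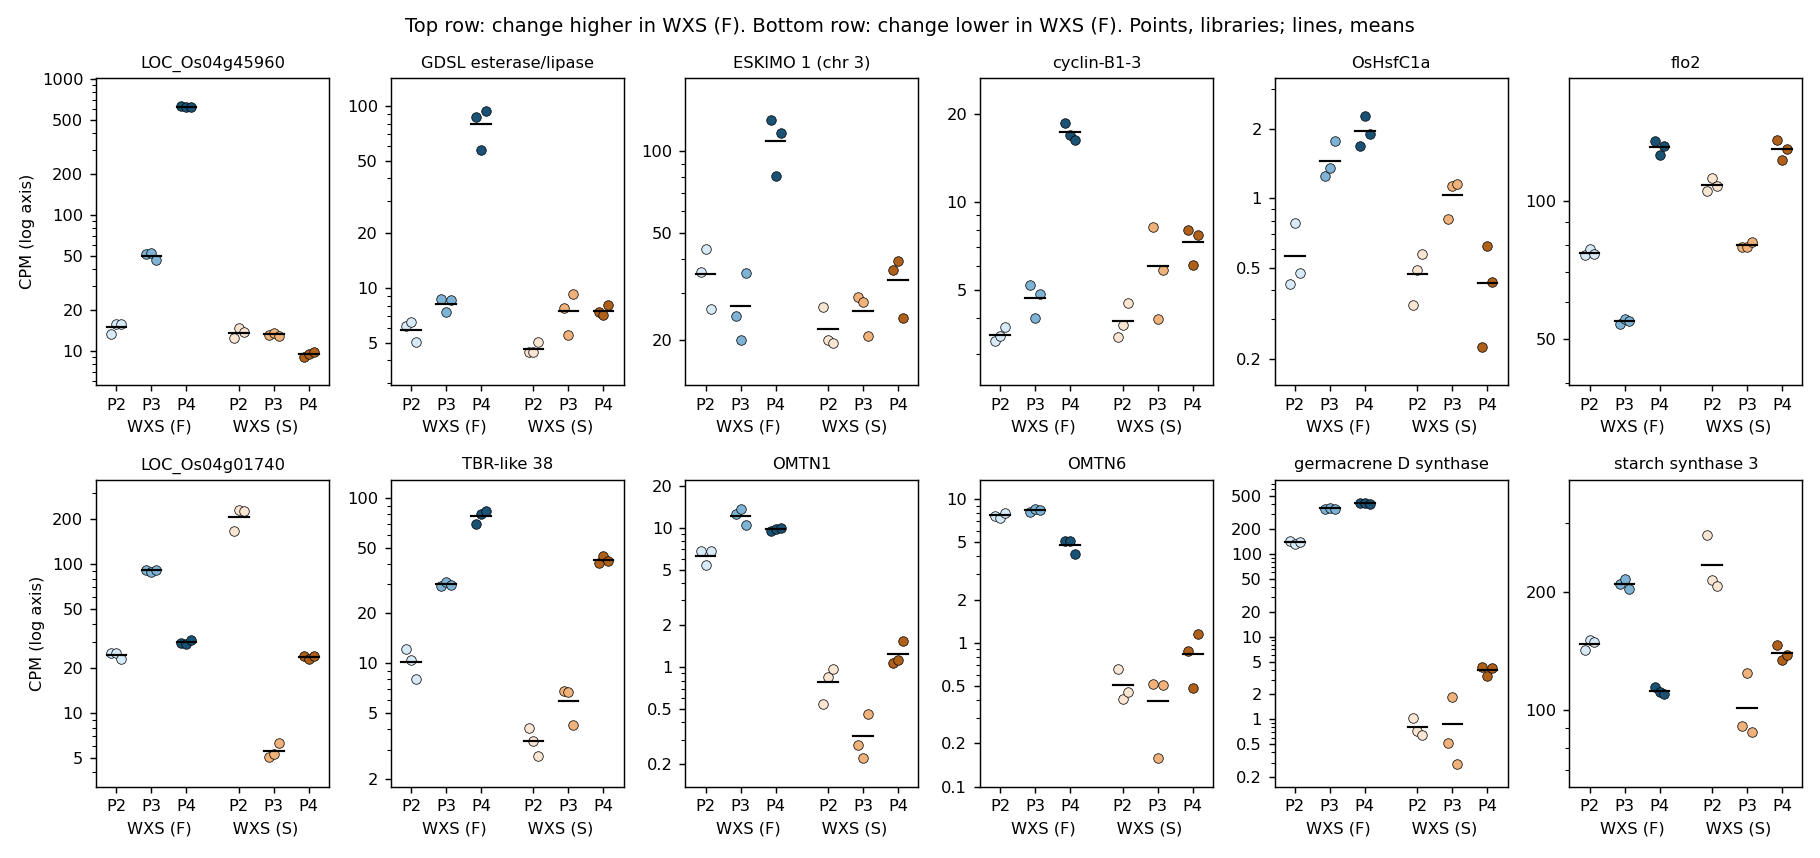
CPM of 12 coding genes in each library (log axis; points, libraries; lines, means of n = 3), with WXS (F) on the left and WXS (S) on the right of each panel. P3 and P4 were scaled in 1 fit and P2 in another. In the top row the P3 to P4 change was higher in WXS (F), as for LOC_Os04g45960 at 619 to 624 CPM in FP4. In the bottom row it was lower, as for germacrene D synthase, at 0.287 to 4.26 CPM in SP3 and SP4.

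Of 20 genes of metabolism and transport tested, 7 were called (35.0%, against 20.0% of all genes tested). All 7 had a lower change in WXS (F), as had 10.9% of all genes tested. The study chose these genes on the same libraries, and the direction was not tested. Soluble starch synthase 3 (LOC_Os04g53310), which extends the chains of amylopectin, fell in WXS (F) and rose in WXS (S). It had 114, 111 and 110 CPM in FP4 against 209, 216 and 204 CPM in FP3. In WXS (S) it had 146, 134 and 138 CPM in SP4 against 90.7, 124 and 87.6 CPM in SP3, where SP3-2 was the highest. The log2 difference was -1.38 ± 0.16 (adjusted p = 0.000182), and the order of the states was reversed between P3 and P4. At P2 it was lower in WXS (F), with 142 to 151 CPM in FP2 against 207 to 280 CPM in SP2.

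Germacrene D synthase (LOC_Os04g27670), a sesquiterpene synthase, was almost restricted to WXS (F). It had 416, 413 and 399 CPM in FP4 and 352, 356 and 353 CPM in FP3, against 4.26, 3.34 and 4.22 CPM in SP4 and 0.514, 1.86 and 0.287 CPM in SP3. The same held at P2, with 133 to 143 CPM in FP2 against 0.657 to 1.05 CPM in SP2. Its log2 difference of changes, -2.04 ± 0.55 (adjusted p = 0.0256), went with a called rise in WXS (S) at low levels and no called change in WXS (F). In CPM the sign was the opposite, with a gain of 55.5 CPM in WXS (F) and of 3.05 CPM in WXS (S). It was -3.08 without SP3-2, and the call was lost without 9 of the other 11 libraries (adjusted p of up to 0.0652) and with DESeq2 (adjusted p = 0.0552).

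Cytoplasmic fructose-bisphosphate aldolase (LOC_Os01g67860), an enzyme of glycolysis, rose in WXS (S) alone. It had 484, 463 and 490 CPM in FP4 against 472, 456 and 461 CPM in FP3, and 926, 810 and 909 CPM in SP4 against 439, 564 and 309 CPM in SP3 (log2 difference -0.96 ± 0.23, adjusted p = 0.0156). At P2 it was far higher in WXS (S), with 264 to 284 CPM in FP2 against 1400 to 1560 CPM in SP2. The remaining called genes of the group were the E1 beta subunit of branched-chain 2-oxoacid dehydrogenase (-0.75 ± 0.14), gamma-glutamylcyclotransferase of glutathione breakdown (-0.71 ± 0.13), uridine nucleosidase 1 (-0.56 ± 0.09) and AMP deaminase (-0.51 ± 0.14), with adjusted p between 0.00201 and 0.0264. AMP deaminase lost its call without 6 of the 12 libraries. OsPT6, a phosphate transporter, had between 0 and 7 counts in each of the 18 libraries and was not tested.

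Among genes of signalling and transcription, 9 of 26 were called (34.6%, against 20.0% of all genes tested). The study names 5 OMTN genes, NAC transcription factors that are targeted by the microRNA miR164. OMTN1 (LOC_Os02g36880) had 9.52, 9.81 and 9.91 CPM in FP4 against 12.5, 13.7 and 10.4 CPM in FP3. It rose in WXS (S) from a low level, with 1.07, 1.13 and 1.54 CPM in SP4 against 0.278, 0.221 and 0.463 CPM in SP3. The log2 difference was -2.25 ± 0.34 (adjusted p = 0.0011). OMTN6 (LOC_Os08g10080) had a difference of -1.86 ± 0.53 (adjusted p = 0.0306), with 5.13, 5.10 and 4.15 CPM in FP4 against 8.16, 8.53 and 8.44 CPM in FP3, and 0.874, 0.481 and 1.15 CPM in SP4 against 0.514, 0.158 and 0.507 CPM in SP3.

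OMTN3 (LOC_Os12g41680) rose in both states and less in WXS (F) on the log2 scale (difference -0.61 ± 0.18, adjusted p = 0.0347). In CPM its rise was larger in WXS (F), 6.98 CPM against 1.98 CPM. OMTN4 (LOC_Os06g46270) had 5.38, 4.78 and 5.16 CPM in FP4 against 3.39, 3.68 and 3.53 CPM in FP3, and 1.38, 1.13 and 0.744 CPM in SP4 against 0.407, 0.315 and 0.419 CPM in SP3 (difference -0.96 ± 0.33, adjusted p = 0.0605). OMTN1, OMTN3, OMTN4 and OMTN6 were higher in WXS (F) than in WXS (S) at P2 too, with log2 differences of 3.00, 3.19, 2.34 and 3.92 (adjusted p between 0.000104 and 0.00685). OMTN5 (LOC_Os06g23650) was at 0 in 2 of the 3 libraries of FP4 and of SP4 and was not called (adjusted p = 0.901). Leaving out 1 library ended the call of OMTN6 with 7 and of OMTN3 with 6 of the 12 libraries, with adjusted p of up to 0.0836.

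OsGAI (LOC_Os03g49990), the rice DELLA protein that represses gibberellin responses, had 85.5, 82.3 and 81.7 CPM in FP4 against 88.8, 80.9 and 91.6 CPM in FP3. In WXS (S) it rose to 137, 151 and 154 CPM in SP4, against 74.6, 92.9 and 110 CPM in SP3. The log2 difference was -0.74 ± 0.17 (adjusted p = 0.0105), and only SP4 stood apart from the other groups. OsHsfC1a (LOC_Os01g43590), a class C heat stress transcription factor, had the opposite pattern at low counts. It had 1.69, 2.28 and 1.91 CPM in FP4 against 1.25, 1.35 and 1.77 CPM in FP3, and 0.225, 0.623 and 0.432 CPM in SP4 against 0.814, 1.13 and 1.15 CPM in SP3. Its difference was 1.69 ± 0.48 (adjusted p = 0.0323), and the call was lost without TMM, without the filter on low counts and without 8 of the 12 libraries, with adjusted p of up to 0.0927.

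The gene flo2 (LOC_Os04g55230), a regulator of storage compounds in the rice endosperm, rose in both states. It had 135, 126 and 132 CPM in FP4 against 53.9, 55.3 and 54.7 CPM in FP3, and 136, 123 and 130 CPM in SP4 against 79.1, 79.3 and 81.4 CPM in SP3. The states met at P4, and the log2 difference of changes was 0.56 ± 0.08 (adjusted p = 0.000529). A BTB/POZ protein (LOC_Os12g40480) had a higher change (0.60 ± 0.09, adjusted p = 0.0013), with a fall in WXS (S) alone. Protein phosphatase 2C 48 (-0.43 ± 0.13) and the MAP kinase kinase MKK3 (-0.34 ± 0.09) had lower changes, and their calls were lost without 7 and 3 of the 12 libraries. OsNAC2 (LOC_Os04g38720) was higher in WXS (F), with 8.54 to 13.4 CPM in FP4 and 7.70 to 9.04 CPM in FP3 against 1.34 to 1.83 CPM in SP4 and 1.26 to 1.61 CPM in SP3, and its change was not called (0.31 ± 0.28, adjusted p = 0.48). OsPP108, a protein phosphatase 2C, was not called either (adjusted p = 0.984) and was at 0 in 1 library each of SP4 and SP3.

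The other groups held fewer called genes by number. Their shares lay between 18.8% (ribosomes and RNA processing) and 28.6% (protein turnover and folding), against 20.0% of all genes tested. The share of the cell wall group was also 28.6%. Of 16 genes of ribosomes and RNA processing, 3 were called. The 40S ribosomal protein S23 had a lower change (-1.15 ± 0.29, adjusted p = 0.019), whereas the 60S ribosomal protein L40-1 (0.86 ± 0.24, adjusted p = 0.0293) and the chromosome 4 copy of CPSF30, a factor of mRNA 3′-end formation (0.65 ± 0.16, adjusted p = 0.016), had higher changes. These genes belong to families with similar copies, so their values are uncertain, and how reads were divided among copies is not given in the sources used here. In the fit of all 18 libraries S23 and L40-1 were no longer called (adjusted p = 0.132 and 0.244), and L40-1 and CPSF30 were not called without TMM. Leaving out 1 library ended the call of L40-1 with 8 of the 12 libraries (adjusted p of up to 0.093) and of CPSF30 with 2 (up to 0.0597).

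Of 12 genes of the cytoskeleton and vesicles, IQ-DOMAIN 31, a calmodulin-binding protein (0.74 ± 0.17, adjusted p = 0.0105), and the vesicle-fusing ATPase NSF (0.28 ± 0.09, adjusted p = 0.0471) had higher changes. Formin-like protein 20, of a family that nucleates actin filaments, had a lower one (-0.41 ± 0.08, adjusted p = 0.00663). The call of NSF was lost without 11 of the 12 libraries (adjusted p of up to 0.184). Of 7 genes of protein turnover and folding, the ubiquitin hydrolase UBP12 (-0.51 ± 0.12, adjusted p = 0.0115) and aminopeptidase M1-B (-0.43 ± 0.08, adjusted p = 0.00274) had lower changes. Among 12 parental genes without a described function, LOC_Os10g14180 (-1.51 ± 0.17, adjusted p = 0.000164) and LOC_Os08g12680 (-0.45 ± 0.12, adjusted p = 0.0275) had lower changes and LOC_Os02g02910 a higher one (0.95 ± 0.15, adjusted p = 0.00181). The call of LOC_Os08g12680 was lost without 3 of the 12 libraries (adjusted p of up to 0.066) and in the fit of all 18 libraries. LOC_Os10g14180 had 20.4, 20.4 and 24.2 CPM in FP4 against 28.5, 32.2 and 30.6 CPM in FP3, while SP4 had 105, 107 and 107 CPM and SP3 51.0, 62.3 and 43.6 CPM.

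Long noncoding RNAs of the same libraries were tested for the same difference. Of 1449 lncRNAs tested, 17 were called (1.17%), all with a lower change in WXS (F) on the log2 scale. By mean CPM, scaled to the coding counts, 13 of the 17 fell from P3 to P4 in both states, and 8 had 0 counts in every FP4 library. The mean was higher in SP3 than in FP3 for 13 of the 17. On the log2 scale, a fall to 0 or few counts is large whatever the level it starts from. MSTRG.42823.1 had 0 counts in all 3 FP4 libraries, against 425, 427 and 336 counts in FP3, while it had 311, 396 and 584 counts in SP4 against 3522, 689 and 2354 counts in SP3. MSTRG.62792.1 had 5, 6 and 13 counts in FP4 against 347, 281 and 298 counts in FP3, and 483, 525 and 540 counts in SP4 against 1792, 748 and 1414 counts in SP3 (log2 difference -4.31 ± 0.45, adjusted p = 0.00086). In both, SP3-2 was the lowest SP3 library. The fall in counts of both was larger in WXS (S) than in WXS (F), against the sign of the log2 difference. Totals of lncRNA counts lay between 87420 and 3158146 per library of P3 and P4, and no lncRNA was called without TMM. Scaled to the coding counts, 15 were called, 14 of them lower, and with DESeq2 127. Fewer were called without SP3-3 (10), FP3-3 (11) or SP4-3 (11), each lower.

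Of 645 circRNAs detected in 3 or more libraries of P3 and P4, none was called with edgeR (0.00%) or DESeq2. Other settings of edgeR called a few, 1 lower without TMM, and 1 higher and 5 lower without the filter or with the replicate number as a block. At an unadjusted p below 0.05, 34 had a higher and 30 a lower change with edgeR, and 4 and 8 with DESeq2. The libraries held 4066 to 8044 junction reads each. The smallest p belonged to a circRNA on chromosome 6 between positions 2200239 and 2213201 (MSU rice genome). It had 0, 0 and 12 junction reads in FP4 against 121, 93 and 85 reads in FP3, and 90, 77 and 0 reads in SP4 against 0, 0 and 0 reads in SP3 (adjusted p = 0.0734).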

How the data were processed

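RNA of young panicles was sequenced in 18 strand-specific libraries after removal of ribosomal RNA. Circular RNAs were found by the authors with find_circ among unmapped reads. The authors used HISAT2 and the MSU rice genome for mapping, and StringTie 1.3.1 is named in their processing notes. The deposited tables hold whole-number counts per coding gene, lncRNA and circRNA without normalization. The counting tool and the handling of reads with several positions are not given in the sources used here. The deposited FPKM and TPM tables were not used, and 0 columns were unmatched.

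Counts of the 12 libraries of P3 and P4 were fitted as 4 groups with edgeR 4.0.16 (TMM, quasi-likelihood test, R 4.3.3), without a block. Coding genes and lncRNAs needed at least 10 counts, and circRNAs at least 1 read, in at least 3 libraries. The contrast was (FP4 - FP3) - (SP4 - SP3), called at a Benjamini-Hochberg adjusted p below 0.05 over all features. Libraries of P2 had a fit of their own. Standard errors are approximate, from the log2 difference and the test statistic. CPM values are TMM-scaled. The procedure was tested on simulated data. The study calls the replicates biological, and p-values measure the spread between them. A floor of 3 counts is at most 9.81e-06% of a library, and for genes with few counts in a library, such as OsHsfC1a and OMTN6, counting error is large.

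Genes named are the 2 in each direction with the smallest p without a name, the parental genes that the study annotated, and its 12 genes with symbols. The rule for named genes gave 8 in each direction, of which only these 2 are printed, because no source used here names them. Lists of 144 rice genes prepared by locus ID are not reported, because only 12 of their IDs are paired with names by the study and 0 by the RefSeq table. The members, groups and lists were chosen with earlier results of these data known. Alternatives were no TMM, RLE size factors, DESeq2 1.42.0, other filters, a fit with all 18 libraries, replicate numbers as a block, thinning to 30577833 counts, an adjusted p below 0.01 with a log2 difference of at least 1, and each library left out. Patterns without SP3-2, lncRNAs and circRNAs scaled to coding counts, and alternatives for comparisons within a stage were added after seeing the data.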

Additional observations from a re-analysis of the deposited data

Results flagged for a closer look

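The change from P3 to P4 differed between WXS (F) and WXS (S), by the test of the difference itself, for 2404 coding genes with a higher and 2878 with a lower change in WXS (F), and for 17 lncRNAs with a lower change. Groups of 3 libraries are too small for a test of single outlying samples.

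On the log2 scale, the largest higher changes of named genes were those of LOC_Os04g45960 (4.12), GDSL esterase/lipase (3.27), LOC_Os01g03660 (2.62), OsHsfC1a (1.69) and ESKIMO 1 (chromosome 3 copy, 1.67). Smaller ones were those of cyclin-B1-3 (1.62), LOC_Os02g02910 (0.95), 60S ribosomal protein L40-1 (0.86), IQ-DOMAIN 31 (0.74) and cinnamoyl-CoA reductase 1 (0.74). Next came CPSF30 (chromosome 4 copy, 0.65), BTB/POZ protein (0.60), flo2 (0.56), gamma-tubulin complex component 2 (0.41) and DNA topoisomerase 3-alpha (0.37). The least was that of vesicle-fusing ATPase NSF (0.28). Among lower changes, the largest were those of LOC_Os04g01740 (-3.70), LOC_Os08g42720 (-3.41), OMTN1 (-2.25), germacrene D synthase (-2.04) and OMTN6 (-1.86). These were followed by LOC_Os10g14180 (-1.51), trichome birefringence-like 38 (-1.47), soluble starch synthase 3 (-1.38), 40S ribosomal protein S23 (-1.15) and cytoplasmic fructose-bisphosphate aldolase (-0.96). Intermediate values were found for branched-chain 2-oxoacid dehydrogenase E1 beta (-0.75), OsGAI (-0.74), DNA ligase 1 (-0.74), gamma-glutamylcyclotransferase (-0.71) and OMTN3 (-0.61). Smaller ones were those of kinesin NACK1 (-0.56), uridine nucleosidase 1 (-0.56), AMP deaminase (-0.51), ubiquitin hydrolase UBP12 (-0.51) and chromatin assembly factor 1 subunit FSM (-0.47). The least were those of LOC_Os08g12680 (-0.45), aminopeptidase M1-B (-0.43), protein phosphatase 2C 48 (-0.43), formin-like protein 20 (-0.41) and MKK3 (-0.34).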

How the results depend on the processing

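Counts of coding genes with a higher and a lower change depended on SP3-2 and on the scaling. Leaving out each library in turn gave 1369 to 4222 genes higher and 2281 to 4332 lower, or 611 to 1212 and 1464 to 2253 with a log2 difference of at least 1. The extremes were without FP4-2 and without SP3-2 for higher changes, and without FP3-1 and without SP3-2 for lower ones. No TMM gave 1266 higher, no filter 1580 higher, and an adjusted p below 0.01 with a log2 difference of at least 1 gave 496 higher, 1087 lower and 7 annotated genes. Annotated genes called ranged over 26 to 55 without each library. Over the same omissions, the genes called were 4188 to 6070 up and 3784 to 5616 down for FP4 against FP3, 5317 to 6647 and 4783 to 6492 for SP4 against SP3, 5713 to 7114 and 4968 to 7016 for FP3 against SP3, 5253 to 6815 and 4178 to 6131 for FP4 against SP4, and 3661 to 5973 and 3426 to 5851 for FP2 against SP2. For lncRNAs they were 0 to 1 higher and 10 to 20 lower, and for circRNAs 0 higher and 0 to 2 lower. No TMM called 0 lncRNAs lower and 1 circRNA lower, DESeq2 18 lncRNAs higher and 109 lower, no filter 9 lncRNAs lower with 1 circRNA higher and 5 lower, and scaling to coding counts 1 lncRNA higher. The cause was not tested.

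Samples that share a replicate number did not deviate together, with residual correlations of -0.0639 to 0.0186 over 18 pairs, against -0.0593 to 0.051 over 36 other pairs. With the replicate number as a block, 1905 coding genes were higher and 2514 lower, 33 annotated genes were called, 9 lncRNAs were lower, and 1 circRNA was higher and 5 lower. Of 41 named genes called, 26 kept the call without every single library, and 25 did so in every alternative but the stricter threshold. The direction was reversed only for 2 genes that were not called. OMTN5 was 0.06 without FP4-1, 0.01 without FP4-2 and 5.75 without SP4-2, within -5.37 to 5.75 over all omissions. OsPP108 was 0.39 without SP3-1, 0.13 without SP4-1 and 0.45 without SP4-2, within -0.71 to 0.45. The smallest totals were 87420 lncRNA counts and 4066 junction reads in a library, and the part of depth in the number of calls was not tested.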
